A study of Arabidopsis thaliana with 48 samples.

Results

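The miRNAs described here are miR402, miR447a-3p, miR447b, miR771, miR848, miR856 and miR4221 of Arabidopsis thaliana. They are annotated at 22 nt and are not known triggers of secondary siRNAs. The 7 miRNAs were selected on their annotated length and on having reads in the 22 nt tables, by name from a list drawn up with these libraries in view, so the presence of 22 nt reads is a condition of the choice and not a result. They are 7 of 428 miRNAs in the tables and 7 of 48 annotated at 22 nt. The others at that length are 5 known triggers (miR173-5p, miR393a-5p, miR393b-5p, miR472-3p and miR828) and 36 miRNAs that the list does not hold, of which 31 had 22 nt reads. The 7 are referred to as the members.

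Small RNAs of 18 to 30 nt were sequenced from closed buds of 3 genotypes, the mutants atprmt5-2 and atprmt5-6 and the wild type Col0, all grown on soil in long days without treatment. Each genotype gave AGO1 immunoprecipitates (AGO1-IP) and the total extracts that served as their input, with 2 libraries per genotype and fraction, stated to be biological duplicates, and 12 libraries in all. PRMT5, the gene that the allele names refer to, encodes a protein arginine methyltransferase. The study asked how its mutations affect small RNA accumulation and loading into AGO1. The labels do not describe the lesions of the alleles, and the tables hold miRNAs only, so neither the mutated gene nor the tissue could be checked against transcripts.

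Plant miRNAs are cut from hairpin precursors by DCL1, mostly as duplexes with strands of 21 nt, and one strand is loaded into an Argonaute protein that then cleaves or represses matching transcripts. AGO1 is the main miRNA Argonaute and prefers guides that begin with U. A miRNA of 22 nt can arise where a bulge makes one arm of the duplex longer, and some miRNAs of this length recruit RDR6, which copies the cleaved target into double-stranded RNA for secondary siRNAs. The members share the length without being established triggers.

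The mature sequences, from RefSeq (build TAIR10.1), are shown because first base, seed and length are what the members do or do not share. Capitals mark the seed, bases 2 to 8 from the 5′ end.
miR402: uUCGAGGCcuauuaaaccucug
miR447a-3p: uUGGGGACgagauguuuuguug
miR447b: uUGGGGACgagauguuuuguug
miR771: uGAGCCUCugugguagcccuca
miR848: uGACAUGGgacugccuaagcua
miR856: uAAUCCUAccaauaacuucagc
miR4221: uUUUCCUCuguugaauucuugc
All 7 begin with U, as do the 5 known triggers, against 62.5% of the 48 miRNAs annotated at 22 nt and 56.3% of the 325 annotated at 21 nt. They hold 6 distinct sequences and 6 distinct seeds, since miR447a-3p and miR447b are the same molecule encoded at 2 loci. The seeds of miR402, miR771, miR848, miR856 and miR4221 occur in no other annotated mature miRNA of RefSeq. The miR447 seed occurs also in miR447c-3p, which differs from miR447a-3p by G11C and G14C, with the base of miR447a-3p first and positions counted from the 5′ end.

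The members come from 7 loci on 4 chromosomes in TAIR10.1 coordinates. miR402 lies at chr1:29016586-29016607 on the plus strand, in an intron of AT1G77230 and on the strand of that gene. miR848 lies at chr5:4479448-4479469 on the minus strand, in an intron of AT5G13890 on the same strand, in 2 of its 3 annotated transcripts. The remaining 5 overlap no other annotated gene: miR447a-3p at chr4:1528190-1528211 and miR447b at chr4:1535482-1535503, both on the minus strand, miR771 at chr3:19659381-19659402 on the minus strand, miR856 at chr1:11957487-11957508 on the plus strand and miR4221 at chr4:8460536-8460557 on the plus strand. In the minimum-energy fold of its annotated precursor, 6 of the 7 spanned 1 nt more than the bases paired with it on the opposite arm, and miR4221 spanned the same number. The same 1 nt excess was found for 18 of 41 other miRNAs annotated at 22 nt (43.9%) and for 19 of 323 annotated at 21 nt (5.88%). Among the known triggers, miR173-5p, miR393a-5p, miR393b-5p and miR472-3p had it and miR828 did not.

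RefSeq names targets for 4 members. miR402 is described as stress-induced and as targeting DML3, a DNA glycosylase that removes methylated cytosine. miR447a-3p and miR447b are said to target 2-phosphoglycerate kinase-related genes, and miR856 the cation/H+ exchanger gene CHX18. miR771 and miR848 are noted as of unknown function and miR4221 has no note. The best sites in these targets, 5′ to 3′ as RNA with Watson-Crick pairs in capitals, show how closely each guide matches.
DML3 site of miR402: CuGAGGUUUAAUAGGCCUCGgA
AT5G60760 site of miR447a-3p: CugacAAACAUCUCGUCCCCAA
CHX18 site of miR856: GCUGAAGUUAUUGGUgGGAUUA
The DML3 site (chr4:16314684-16314705, plus strand, coding exon) has 20 pairs, 1 G:U pair and 1 mismatch. The site in AT5G60760, a 2-phosphoglycerate kinase-related gene (chr5:24440806-24440827, plus strand, coding exon), has 18 pairs, 1 G:U pair and 3 mismatches. The CHX18 site crosses an exon junction within chr5:16640859-16640963 on the minus strand and has 21 pairs and 1 G:U pair. In ZAT1, which RefSeq gives as a potential target of miR856, the best site had 7 mismatches. Target transcripts were not measured here.

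Levels are given in RPM, the authors' read number scaled to all reads of the stated length in a library. The libraries held 703609 to 2259088 reads of 22 nt in AGO1-IP and 538878 to 1106045 in total small RNA. Annotated miRNAs made up only 0.206% to 0.437% of those reads in AGO1-IP and 0.0404% to 0.0884% in total small RNA. In AGO1-IP their part was 0.206% in both Col0 libraries and 0.277% to 0.437% in the mutants. Of the 22 nt miRNA reads in AGO1-IP, the members held 6.76% to 7.51% in atprmt5-2, 9.28% to 9.93% in atprmt5-6 and 10.8% to 11.3% in Col0. The 22 nt tables list no miRNA annotated under 22 nt. One read was worth 0.443 to 1.42 RPM in AGO1-IP and 0.904 to 1.86 RPM in total small RNA. The 7 members together gave 206 to 525 reads per AGO1-IP library and 36 to 79 per total library, so single members in total small RNA rest on few reads, and depth limits what can be seen there. Reads longer than the annotated mature sequence were not listed, so the absence of members at 23 and 24 nt is no result. The 23 nt table of Col0 total replicate 1 does list members, but it repeats the library's 21 nt values and was left out.

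miR771 was the highest member in AGO1-IP of each genotype. It had 117 and 138 RPM in atprmt5-2 and 115 and 130 RPM in atprmt5-6, against 89.9 and 95.2 RPM in Col0. The mutant and Col0 libraries did not overlap. Of the 22 miRNAs with a mean of at least 5 RPM, 50% in atprmt5-2 and 63.6% in atprmt5-6 likewise lay above both Col0 libraries. In total small RNA it had 18.4 and 24.0 RPM in atprmt5-2 and 13.7 and 19.1 RPM in atprmt5-6, against 11.1 and 28.9 RPM in Col0. Here the 2 Col0 libraries enclosed all mutant values.

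miR447a-3p and miR447b cannot be told apart by sequence, and the tables divide the reads between them. miR447a-3p held 278 of 582 reads over all libraries, or 47.8% (95% Clopper-Pearson interval 43.6% to 51.9%). The share was lower in atprmt5-2 AGO1-IP replicate 1, at 17 of 60 reads or 28.3% (17.4% to 41.4%). Their sum is therefore the measure of the molecule. It averaged 79.8 ± 7.80 RPM in atprmt5-2 and 67.1 ± 7.44 RPM in atprmt5-6, against 36.8 ± 4.995 RPM in Col0 (SD, n = 2 each) in AGO1-IP. In total small RNA it averaged 9.75 ± 7.32 RPM in atprmt5-2 and 11.9 ± 1.16 RPM in atprmt5-6, against 10.04 ± 3.70 RPM in Col0. The mutants thus lay above Col0 in AGO1-IP and around it in total small RNA. miR447c-3p had 0 reads of 22 nt in every library. A further product of the MIR447a hairpin, miR447a.2-3p, is annotated at 21 nt with its 5′ end 43 nt away. It was far more abundant, at 885 to 1116 RPM of 21 nt reads in AGO1-IP and 464 to 797 RPM in total small RNA.

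miR856 was highest in the wild type. It had 48.3 and 44.1 RPM in AGO1-IP of atprmt5-2 and 43.6 and 28.8 RPM in that of atprmt5-6, against 59.1 and 51.8 RPM in Col0. Total extracts gave it 11.5 and 6.87 RPM in atprmt5-2 and 11.7 and 13.1 RPM in atprmt5-6, against 37.1 and 18.1 RPM in Col0. Every mutant library lay below both Col0 libraries in either fraction.

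miR848 had 24.2 and 16.1 RPM in AGO1-IP of atprmt5-2 and 29.9 and 27.3 RPM in that of atprmt5-6, against 22.5 and 24.8 RPM in Col0. Total extracts gave it 2.30 and 0 RPM in atprmt5-2 and 1.95 and 2.01 RPM in atprmt5-6, against 9.28 and 6.33 RPM in Col0. The total values are 2, 0, 2 and 2 reads in the mutant libraries and 5 and 7 reads in Col0, and those of the mutants lay below Col0 throughout.

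miR402, the DML3 guide, and miR4221 were the lowest members in AGO1-IP. miR402 had 9.95 and 11.4 RPM in AGO1-IP of atprmt5-2 and 14.96 and 11.1 RPM in that of atprmt5-6, against 11.7 and 5.75 RPM in Col0. miR4221 had 8.53 and 12.04 RPM in atprmt5-2 and 16.9 and 20.7 RPM in atprmt5-6, against 6.84 and 14.6 RPM in Col0. Of these, only miR4221 in atprmt5-6 lay clear of Col0. Both had 1 to 4 reads in each total library. miR4221 had 1.15 and 2.29 RPM in total extracts of atprmt5-2 and 0.98 and 1.00 RPM in those of atprmt5-6, against 7.42 and 2.71 RPM in Col0, so all mutant values were below Col0.

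Ranked by mean level in AGO1-IP, with the miR447 copies summed, the order in atprmt5-2 was miR771, miR447, miR856, miR848, miR402 and miR4221. The ranges of the last pair overlapped. In atprmt5-6 the order was miR771, miR447, miR856, miR848, miR4221 and miR402, and miR856 and miR848 overlapped. In Col0 miR856 stood above miR447 (55.4 ± 5.18 RPM against 36.8 ± 4.995 RPM), and only miR4221 and miR402 overlapped. In Col0 total small RNA no neighbours in the order were separated by their 2 libraries.

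**Figure D1:**
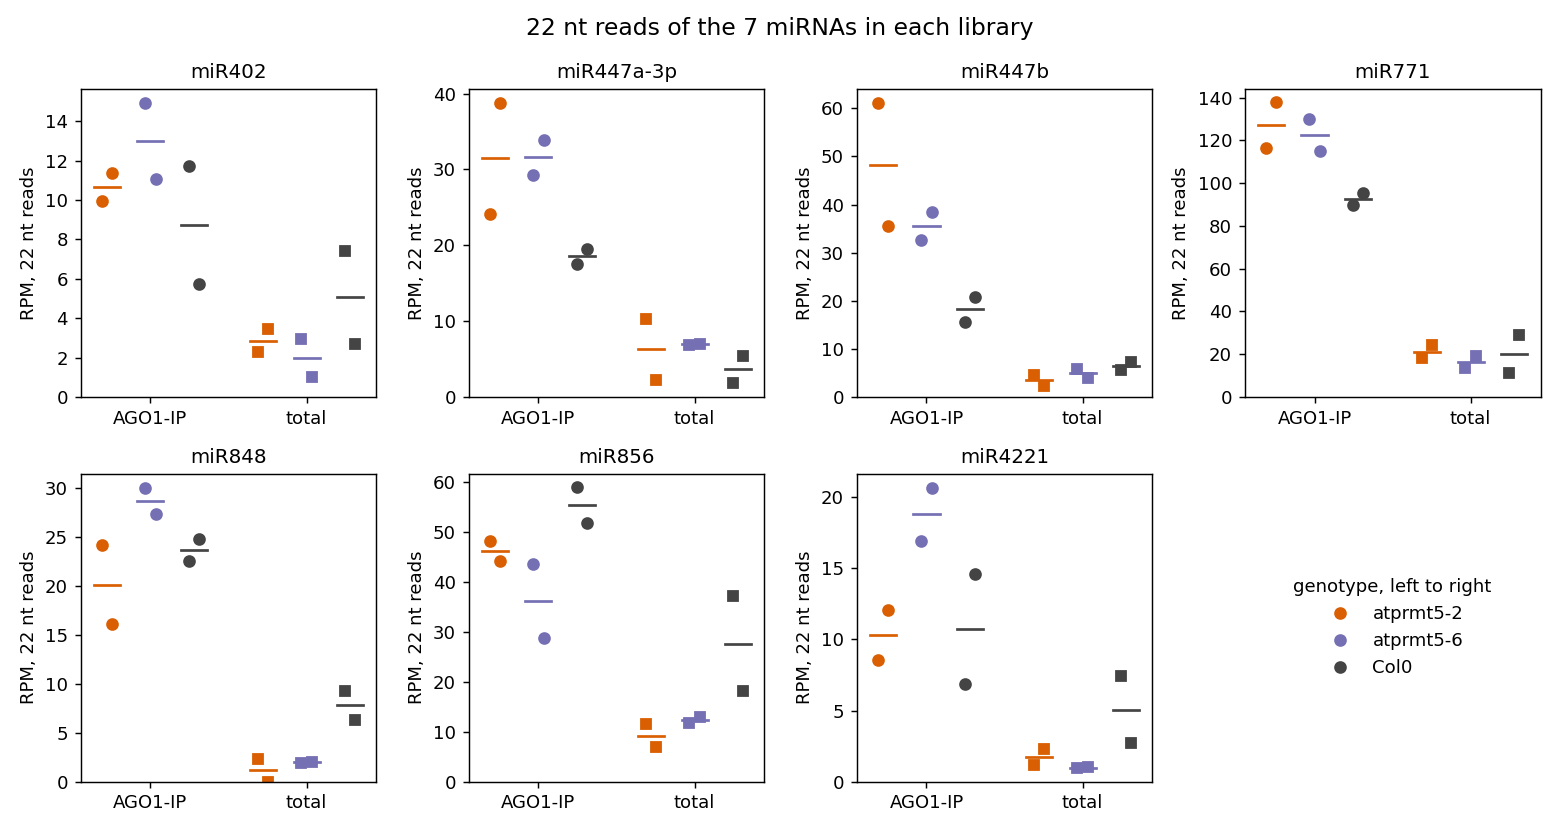
RPM of 22 nt reads of each member (y axis, own scale in each panel) in the 12 libraries. Circles are AGO1-IP and squares total small RNA, colours are genotypes, and bars are means of 2 libraries. miR848, miR856 and miR4221 in total small RNA and miR856 in AGO1-IP lie lower in all 4 mutant libraries than in both Col0 libraries, while miR447a-3p, miR447b and miR771 in AGO1-IP lie higher. Of the 22 miRNAs with a mean of at least 5 RPM, 50% in atprmt5-2 and 63.6% in atprmt5-6 lay above both Col0 libraries in AGO1-IP. Below both lay 9.09% in each allele in AGO1-IP, and 27.3% in atprmt5-2 and 36.4% in atprmt5-6 in total small RNA.

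Differences were tested with limma on log2(RPM + 1) over the 22 miRNAs with a mean of at least 5 RPM, with Benjamini-Hochberg adjustment over all 22 and a threshold of 0.05. On this scale the change of low miRNAs is understated. All 7 members passed the filter, although in the total libraries 3 of 7 reached that mean in atprmt5-2, 3 in atprmt5-6 and 6 in Col0, so several passed through their AGO1-IP values. miR402 was the lowest member inside the filter with a mean of 7.05 RPM, and miR831-3p the nearest miRNA outside it with 4.51 RPM. Both alleles are compared with the same 2 Col0 libraries per fraction, so their values stand side by side and are not independent.

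In total small RNA of atprmt5-2, miR848 and miR856 fell and no member rose. These are 2 of 7 members, beside 13.6% of all tested miRNAs called lower and 0% called higher. miR848 fell by 2.26 (SE 0.52, limma adjusted p = 0.0169), to 1.15 ± 1.62 RPM in atprmt5-2 against 7.80 ± 2.09 RPM in Col0 (SD, n = 2 each). The 22 nt counts of replicates differed by more than sampling noise in all 6 groups (chi-square over its degrees of freedom between 2.19 and 15.05), so the intervals of read ratios here and below cover counting error only and are narrower than the replicate error. The ratio of atprmt5-2 to Col0 was 0.157 (95% interval 0.0171 to 0.706), from 2 and 12 reads. miR856 fell by 1.44 (SE 0.42, limma adjusted p = 0.0473), to 9.17 ± 3.26 RPM against 27.6 ± 13.5 RPM in Col0, with a ratio of 0.377 (0.197 to 0.689) from 16 and 40 reads. The other 5 members ran from a log2 difference of -1.07 for miR4221 to 0.51 for miR447a-3p. The median of the 7 was -0.78, beside -0.02 for all 22 miRNAs. Neither call held throughout. miR848 stood at -1.40 (adjusted p = 0.0585) without atprmt5-2 total replicate 2 and at -2.01 (adjusted p = 0.0711) without Col0 total replicate 1, between -3.12 and -1.40 over the fits that left out 1 library, and its adjusted p over all alternatives was 0.000684 to 0.075. miR856 passed in 2 of the 12 fits that left out 1 library. In 8 of the 10 others the library was of another group, so its difference stayed at -1.44 and only the adjusted p moved, to between 0.0508 and 0.0975. Its difference was -1.11 (adjusted p = 0.126) without atprmt5-2 total replicate 2 and -0.95 (adjusted p = 0.257) without Col0 total replicate 1, and its adjusted p over all alternatives was 0.0119 to 0.257. In bulk buds, fewer cells of a type and less RNA per cell cannot be told apart.

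In atprmt5-6 total small RNA no member was called by limma, beside 0% of all 22 in either direction. At an unadjusted p under 0.05 there were 3 members and 4 miRNAs in all. miR848 had a log2 difference of -1.54 (SE 0.52, limma adjusted p = 0.0899), miR4221 of -1.49 (SE 0.51, adjusted p = 0.0899) and miR856 of -1.01 (SE 0.42, adjusted p = 0.179). By counting error only, the ratio to Col0 by reads was 0.271 for miR848 (95% interval 0.0638 to 0.895, 4 and 12 reads), 0.233 for miR4221 (0.0236 to 1.22, 2 and 7 reads) and 0.509 for miR856 (0.296 to 0.860, 25 and 40 reads). The member median was -0.99, beside -0.30 for all 22. The libraries of 3 members lay below both Col0 libraries and those of 1, miR447a-3p, above, where 36.4% and 4.55% of all tested miRNAs did so. Summed with its identical copy miR447b, miR447a-3p overlapped Col0, at 11.05 and 12.69 RPM against 7.42 and 12.66 RPM. In atprmt5-2 there were 4 below and 0 above, beside 27.3% and 9.09%. The 4 included miR447b, and the summed copies, at 4.58 and 14.9 RPM, enclosed both Col0 values.

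In AGO1-IP no member was called by limma in either allele, beside 0% of all tested in either direction. At an unadjusted p under 0.05 there was 1 member in atprmt5-2 and 0 in atprmt5-6, and there were 8 and 1 miRNAs in all. miR447b stood highest, with a log2 difference in atprmt5-2 of 1.32 (SE 0.43, limma adjusted p = 0.0671). The value for atprmt5-6 was 0.93 (SE 0.43, limma adjusted p = 0.413). Its identical copy miR447a-3p stood at 0.70 and 0.74 (SE 0.56 each), and the 2 copies summed at 1.10 (adjusted p = 0.136) and 0.85 (adjusted p = 0.490) by limma. miR771 stood at 0.45 and 0.40 (SE 0.43 each). By counting error only, which the replicates exceeded, the ratio to Col0 by reads was 2.38 for miR447b (95% interval 1.75 to 3.25) and 1.41 for miR771 (1.21 to 1.65) in atprmt5-2, and 1.92 (1.42 to 2.61) and 1.33 (1.15 to 1.54) in atprmt5-6. For the identical copy miR447a-3p it was 1.84 (1.32 to 2.55) in atprmt5-2 and 1.69 (1.24 to 2.32) in atprmt5-6. Scaled to miRNA reads of 22 nt in place of all reads of that length, miR771 stood below Col0 in both alleles, at -0.54 and -0.13 on the log2 scale, and miR447a-3p in atprmt5-2, at -0.26. miR856 was the single member below 0 in both alleles, at -0.26 and -0.63 (SE 0.42 each). In atprmt5-2 the libraries of 3 members lay above and those of 1 below both Col0 libraries, where 50% and 9.09% of all tested miRNAs did so. In atprmt5-6 there were 5 above and 1 below, beside 63.6% and 9.09%. The members above Col0 in either allele included both miR447a-3p and miR447b, so the same molecule was counted under both names.

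**Figure D2:**
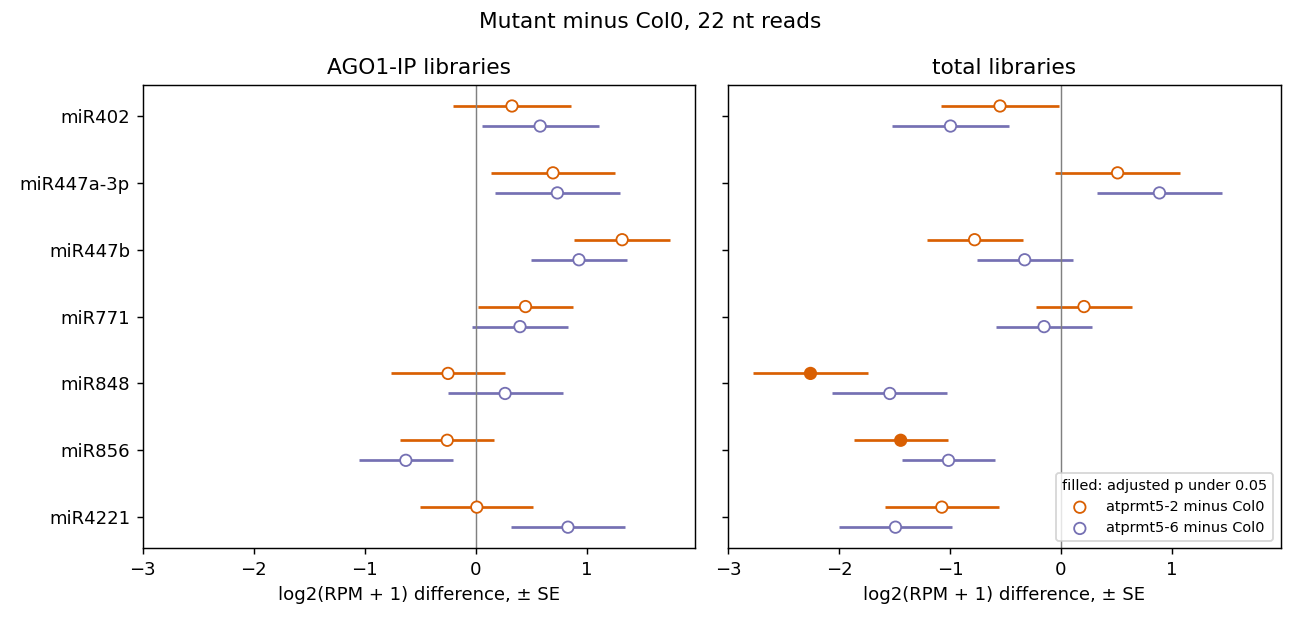
Difference of each mutant from Col0 in log2(RPM + 1) of 22 nt reads (x axis) for each member (rows), in AGO1-IP on the left and total small RNA on the right. Bars are standard errors from limma, and filled symbols have an adjusted p under 0.05. The filled symbols are miR848 at -2.26 and miR856 at -1.44, both atprmt5-2 in total small RNA.

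Nearly all tested miRNAs of 22 nt were higher in AGO1-IP than in total small RNA, at 90.9% of the 22 in atprmt5-2, 90.9% in atprmt5-6 and 77.3% in Col0. In the mutants, miR447a-3p, miR771 and miR856 reached 5 RPM in total small RNA too, and all 3 were called higher in AGO1-IP. The log2 differences in atprmt5-2 were 2.37 for miR447a-3p (limma adjusted p = 0.00148), 2.54 for miR771 (adjusted p = 0.000126) and 2.25 for miR856 (adjusted p = 0.000277). In atprmt5-6 they were 2.04 for miR447a-3p (limma adjusted p = 0.00372), 2.85 for miR771 (adjusted p = 5.99e-05) and 1.45 for miR856 (adjusted p = 0.0048). miR402, miR447b, miR848 and miR4221 stood under 5 RPM in the mutants' total libraries. Among the mutant libraries they met the filter through AGO1-IP alone, so higher AGO1-IP values were in part built into the choice, and their differences, 1.61 to 3.51 in atprmt5-2 and 2.31 to 3.31 in atprmt5-6, are given as a description.

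In Col0 all members except miR447a-3p reached 5 RPM in total small RNA. The differences were 1.37 for miR447b (limma adjusted p = 0.0123), 2.29 for miR771 (adjusted p = 0.000516), 1.503 for miR848 (adjusted p = 0.018) and 1.06 for miR856 (adjusted p = 0.0324). miR402 stood at 0.73 (limma adjusted p = 0.200) and miR4221 at 0.98 (adjusted p = 0.0838), neither called. Among the Col0 libraries miR447a-3p met the filter through AGO1-IP alone, so its difference, 2.19, is given as a description. The miR447 copies summed, the measure of the molecule, reached 5 RPM in total small RNA of every genotype. With identical sequences summed, 20 miRNAs were tested. The sum was called higher in AGO1-IP, at 3.10 in atprmt5-2 (limma adjusted p = 7.94e-05), 2.40 in atprmt5-6 (adjusted p = 0.000547) and 1.81 in Col0 (adjusted p = 0.00473). With the replicate number as a block, miR447b, miR848 and miR856 were no longer called in Col0. That fit took the difference at replicate 1 of each fraction and not between group means. Its counts therefore do not show what pairing of libraries would change. Of 5 calls 2 were left, those of miR771 and of miR447a-3p, which is only described here. Of all 22 miRNAs, 14 were called with the block and 18 without it. Which members were called in Col0 also changed when single libraries were left out. The difference then ran from 1.18 to 1.57 for miR447b and from 1.64 to 2.95 for miR771. It ran from 1.26 to 1.75 for miR848 and from 0.56 to 1.56 for miR856.

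The median difference of the 22 miRNAs was 2.71 in atprmt5-2, 2.65 in atprmt5-6 and 2.06 in Col0. The calls are relative to all 22 nt reads, of which miRNAs were a larger share in AGO1-IP. Scaled to miRNA reads, 0 members were called in any genotype, beside 2 of all 22 in each, and the differences of 5 in atprmt5-2, 2 in atprmt5-6 and 5 in Col0 lay below 0. With each library centred on its median miRNA, 2 members were called in atprmt5-2, where 7 of 22 were, and 0 in atprmt5-6 and Col0, where 3 and 2 of 22 were. With 21 and 22 nt reads summed and scaled to all reads of both lengths, only 3 members (miR447b, miR771 and miR856) could be tested. In atprmt5-2, atprmt5-6 and Col0, 2, 2 and 0 of them were called, beside 95, 95 and 76 of all 120 miRNAs.

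**Figure D3:**
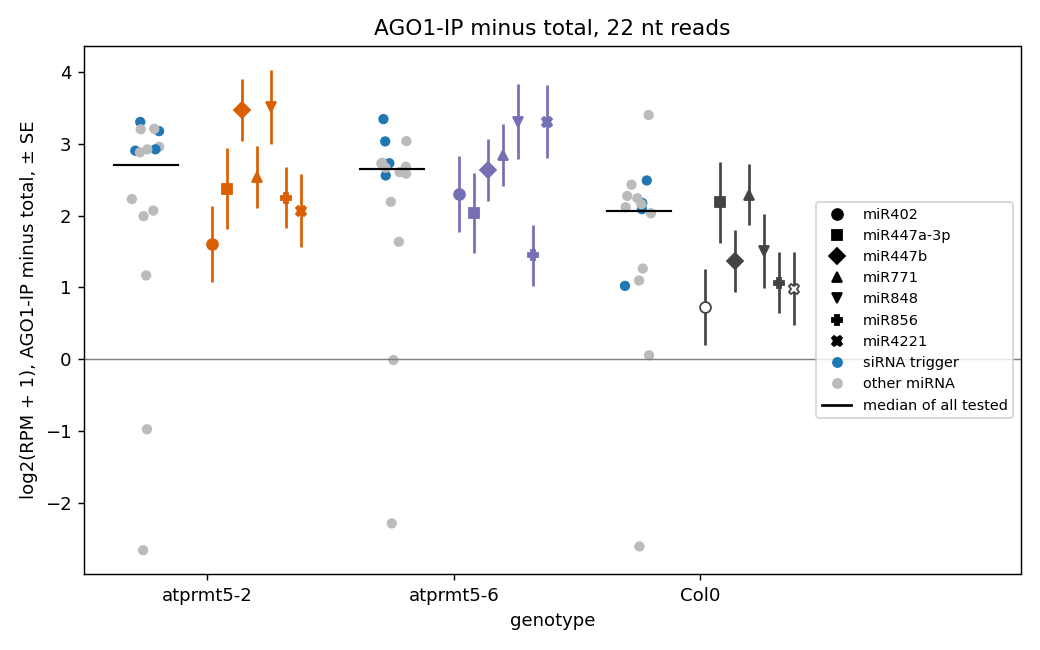
Difference of AGO1-IP from total small RNA in log2(RPM + 1) of 22 nt reads (y axis) in each genotype (x axis). Members have their own symbols with standard errors, filled where the adjusted p is under 0.05, other tested miRNAs are dots, and a line marks the median of the 22. Members and triggers alike lie above 0, and the open symbols are miR402 and miR4221 in Col0.

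The difference of loading between a mutant and Col0 was tested as an interaction, the AGO1-IP minus total difference of the mutant minus that of Col0. limma called no member and 0% of the 22 miRNAs in either direction in either allele. At an unadjusted p under 0.05 there were 2 members in atprmt5-2, of 4 miRNAs in all, and 2 in atprmt5-6, of 3 in all. The highest values in atprmt5-2 were 2.10 for miR447b (SE 0.61, adjusted p = 0.0639) and 2.01 for miR848 (SE 0.73, adjusted p = 0.122). In atprmt5-6 they were 2.32 for miR4221 (SE 0.72, adjusted p = 0.149) and 1.81 for miR848 (SE 0.73, adjusted p = 0.206). Among the mutant libraries these members met the filter through AGO1-IP alone, so their values are given as a description. The total libraries of atprmt5-2 held 6 reads of miR447b and 2 of miR848. Those of atprmt5-6 held 2 reads of miR4221 and 4 of miR848. miR447a-3p, the same molecule as miR447b, stood at 0.19 (adjusted p = 0.956) in atprmt5-2, and the 2 copies summed stood at 1.29 (adjusted p = 0.255). The medians of the members were 1.08 in atprmt5-2 and 1.26 in atprmt5-6, beside 0.71 and 0.56 for all 22.

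Reads of 21 nt, 1 nt shorter than the annotation, were listed for all 7 members. Only miR771 reached a mean of 5 RPM among 21 nt reads, where 128 miRNAs were tested. It had 4.27 and 6.20 RPM in AGO1-IP of atprmt5-2, 7.22 and 9.15 RPM in that of atprmt5-6 and 7.76 and 9.87 RPM in that of Col0. Total extracts gave it 12.7 and 7.26 RPM in atprmt5-2, 10.7 and 8.53 RPM in atprmt5-6 and 17.5 and 19.7 RPM in Col0. In contrast to its 22 nt form, the 21 nt form of Col0 was lower in AGO1-IP than in total small RNA, with a log2 difference of -1.01 (SE 0.33, limma adjusted p = 0.0343), where 20.3% of the 128 were called lower. The differences in atprmt5-2 (-0.79, adjusted p = 0.0694) and atprmt5-6 (-0.21, adjusted p = 0.620) were not called, beside 18.8% and 19.5% called lower. Against Col0 in total small RNA it stood at -0.88 in atprmt5-2 (adjusted p = 0.0908) and -0.89 in atprmt5-6 (adjusted p = 0.0645), not called, beside 12.5% and 16.4% of the 128 called lower. Against Col0 in AGO1-IP it stood at -0.66 and -0.10 and was not called.

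Within a library, reads of 21 and 22 nt share 1 pool, so the share at 22 nt needs no scaling. Intervals cover counting error only. For miR771 the 22 nt share was 83.7% and 83.1% in AGO1-IP of atprmt5-2, 77.2% and 72.6% in that of atprmt5-6 and 77.97% and 74.1% in that of Col0. Total extracts gave 50.0% and 72.4% in atprmt5-2, 48.3% and 63.3% in atprmt5-6 and 37.5% and 55.2% in Col0. The fractions did not overlap within any genotype. The mean difference was 23.7 percentage points, AGO1-IP minus total, over 6 libraries each (exact two-sided permutation test p = 0.00217, the smallest these libraries can give, adjusted p = 0.0281 over 13 share comparisons). Since the total extracts served as input of the immunoprecipitates, libraries of the fractions may be paired, in a way the labels do not give. The permutation test took all libraries as independent, and so did the limma tests of AGO1-IP against total. With libraries of at least 30 reads only, the difference was 21.9 points over 6 against 3 libraries, where the exact permutation test gave p = 0.0238, the smallest possible, and adjusted over 6 comparisons (p = 0.143) could not pass.

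miR848 was at 22 nt in 226 of 256 AGO1-IP reads (88.3%, 95% interval 83.7% to 91.9%) but in 18 of 43 total reads (41.9%, 27.0% to 57.9%). Only 1 total library had 10 reads of it, so the difference was not tested across libraries. miR856 was nearly all 22 nt in both, at 96.3% of 461 AGO1-IP reads and 96.4% of 84 total reads. miR402 stood at 94.3% of 105 and 100% of 16 reads, and miR4221 at 64.4% of 194 and 85.7% of 14 reads. The miR447 copies stood at 75.9% and 78.9% in AGO1-IP and 76.2% and 64.3% in total small RNA. The triggers spanned 72.7% to 98.9% in AGO1-IP and 65.4% to 98.3% in total small RNA. A higher share in AGO1-IP was not particular to members. Outside the list, miR403-5p stood at 98.1% in AGO1-IP and 54.1% in total small RNA, and miR167d at 71.5% and 55.05%. miR840-5p went the other way, at 19.4% and 41.7%. Between mutants and Col0 within a fraction, no member's share passed the exact permutation test (adjusted p of 0.65 or more), which with 4 against 2 libraries cannot go below p = 0.133.

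**Figure D4:**
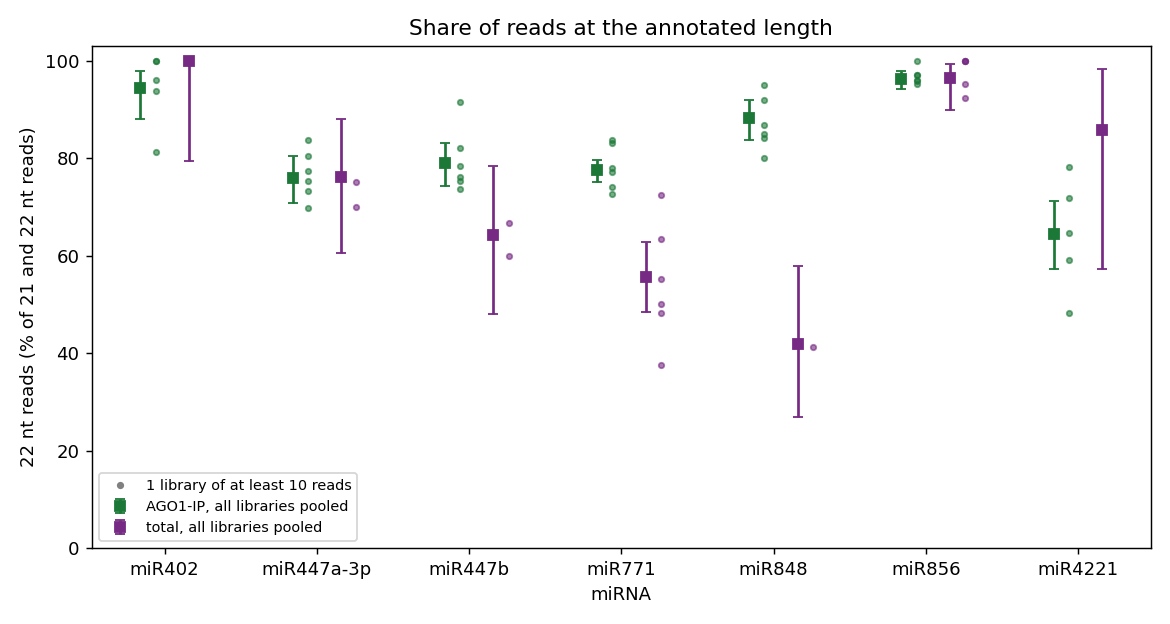
Reads of 22 nt as a percentage of 21 and 22 nt reads (y axis) for each member (x axis). Squares pool the libraries of a fraction, with 95% Clopper-Pearson intervals, and dots are single libraries of at least 10 reads. miR771 and miR848 lie higher in AGO1-IP than in total small RNA, and miR856 lies near 96% in both.

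Over the 12 libraries, the miRNA outside the list whose log2(RPM + 1) ran most like a member's was miR777 for miR447a-3p (Pearson r 0.95) and miR447b (0.95), miR393a-5p for miR771 (0.97) and miR845b for miR402 (0.88), miR848 (0.92), miR856 (0.91) and miR4221 (0.92). The 12 libraries share differences of fraction and depth, so these values describe likeness only.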

How the data were processed

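The authors deposited, per the labels, a table of each library for each of 4 read lengths (21, 22, 23 and 24 nt), with RPM values per annotated miRNA. The tools named per the submitters' processing notes are Bowtie2, SAMtools 1.9 and Trimmomatic 0.36, with TAIR10 as genome build. What each was used for is not given in the sources used here. From the steps of the RPM values the number of reads of each length was recovered, and values came out whole within 0.01 reads. A miRNA not listed was taken as 0 reads. Reads longer than the annotated mature sequence were not listed, so the 22 nt tables do not show longer forms of shorter miRNAs.

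Main tests used limma 3.58.1 with an intensity trend on log2(RPM + 1), all 12 libraries in 6 groups and no block, for miRNAs with a mean of at least 5 RPM. The groups share 1 estimate of spread. The script was tested on simulated data. For 21 nt reads edgeR 4.0.16 was an alternative. Shares were compared by exact permutation over libraries with at least 10 reads. Of 428 miRNAs, 427 matched RefSeq mature sequences. Precursors were folded with RNAfold 2.7.2, and sites are the best ungapped matches in transcripts of the targets RefSeq names or, for miR447, of a known target. All 7 members are named, beside the triggers and the most alike miRNAs. The members, lists and tests were chosen with earlier results of these data known. Alternatives changed pseudocount, filter, scaling, copies, read lengths, block and libraries.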

Additional observations from a re-analysis of the deposited data

How the results depend on the processing

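The counts of members called by limma at 22 nt moved with several choices, and the cause was not tested. For atprmt5-2 against Col0 in total small RNA, 2 members were called, beside 3 of all 22 miRNAs. There were 0 with no filter (1 of all 51) and 0 with a mean of at least 20 RPM (1 of all 12). Centring libraries on the median miRNA left 0 (0 of all 22), and summing 21 and 22 nt reads left 1 (16 of all 120). Only 2 members could be tested with a mean of at least 20 RPM and 3 with summed lengths, and miR848 in neither. In AGO1-IP of that allele 1 was called with a pseudocount of 10 RPM (7 of all 22) against 0 with 1 RPM (0 of 22), and likewise 1 (2 of 22) against 0 (0 of 22) for the loading difference. For AGO1-IP against total small RNA, scaling to miRNA reads left 0 members called in each genotype, beside 2 of all 22. The counts that follow are for atprmt5-2, atprmt5-6 and Col0 in that order. A mean of at least 20 RPM left 2, 2 and 1 of 2 tested members, beside 12, 12 and 11 of all 12. Centring left 2, 0 and 0, beside 7, 3 and 2 of all 22. Summing both lengths left 2, 2 and 0 of 3 tested members, beside 95, 95 and 76 of all 120.

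Leaving out each library in turn changed which members were called against Col0 in total small RNA of both alleles and in AGO1-IP of atprmt5-2. It also changed the calls for both loading differences and for AGO1-IP against total in every genotype. Calls over all 22 miRNAs moved in these fits as well. The lone library of a group was then assumed to vary like the others. Uncalled member values that changed sign ranged, against Col0 in total small RNA, from -1.14 to 0.042 (miR402), -0.38 to 1.40 (miR447a-3p) and -0.44 to 0.86 (miR771) in atprmt5-2, and -0.80 to 0.50 (miR771) in atprmt5-6. In AGO1-IP of atprmt5-2 they ranged from -0.13 to 0.78 (miR402), -0.53 to 0.032 (miR848) and -0.49 to 0.51 (miR4221). Loading differences ranged from -0.71 to 1.08 (miR447a-3p) and -0.41 to 0.89 (miR771) in atprmt5-2, and from -0.74 to 0.43 (miR447a-3p), -0.10 to 1.203 (miR771) and -0.11 to 0.88 (miR856) in atprmt5-6.

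The labels number replicates within a fraction but do not pair them, and the deviations of same-numbered 22 nt libraries correlated at -0.17 to 0.59 over 22 miRNAs. With the replicate block, 2 members instead of 5 were called for AGO1-IP against total in Col0, beside 14 instead of 18 of all 22 miRNAs. For AGO1-IP against total, this block took the difference at replicate 1 of each fraction and not between group means. The other counts of members did not change.

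Signs turned mostly under scalings that remove the difference in miRNA content. Scaled to miRNA reads, AGO1-IP against total became -0.76 (miR402), -0.12 (miR447a-3p), -0.19 (miR771), -0.38 (miR856) and -0.17 (miR4221) in atprmt5-2, -0.44 (miR447a-3p) and -1.10 (miR856) in atprmt5-6, and -0.89 (miR402), -0.33 (miR447b), -0.22 (miR848), -0.74 (miR856) and -0.64 (miR4221) in Col0. Centred, it became -0.33 (miR402) in atprmt5-2, -0.043 (miR447a-3p) and -0.63 (miR856) in atprmt5-6, and -0.67 (miR402), -0.023 (miR447b), -0.33 (miR856) and -0.41 (miR4221) in Col0. Against Col0 in AGO1-IP, scaling to miRNA reads gave -0.55 (miR402), -0.26 (miR447a-3p), -0.54 (miR771) and -0.85 (miR4221) in atprmt5-2 and -0.13 (miR771) and -0.24 (miR848) in atprmt5-6. Centring gave -0.27 (miR4221) in atprmt5-2 and -0.013 (miR848) in atprmt5-6, a pseudocount of 10 RPM gave -0.011 (miR4221, atprmt5-2), and summed lengths gave -0.13 and -0.054 for miR771 in atprmt5-2 and atprmt5-6. In total small RNA, summed copies gave -0.19 (miR447a-3p) and summed lengths -0.31 (miR771) in atprmt5-2, while in atprmt5-6 scaling gave 0.11 (miR771) and centring 0.25 (miR771) and 0.079 (miR447b). For loading differences, scaling gave -0.75 (miR447a-3p) and -0.69 (miR771) in atprmt5-2 and -0.24 (miR771) and -0.35 (miR856) in atprmt5-6. Centring gave -0.36 (miR447a-3p) and -0.30 (miR771) in atprmt5-2 and -0.13 (miR771) and -0.30 (miR856) in atprmt5-6. miR447a-3p in atprmt5-6 became 0.22 with a pseudocount of 10 RPM and 0.59 with summed copies.

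For miR771 at 21 nt, 17 of 18 alternative values kept direction and call. The exception, atprmt5-6 against Col0 in total small RNA with a pseudocount of 10 RPM, was called lower. The planned edgeR and DESeq2 fits at 22 nt were not run, because the check set before such fits asks for more low values than are listed there. The 22 nt values themselves came out whole within 0.01 reads. In total small RNA most members have under 10 reads per library, which limits every comparison with it.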
